A study of Mus musculus with 17 samples.

Results

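The endoderm microRNAs (miRNAs) miR-192, miR-194, miR-375 and miR-122 were followed in 2 lines of mouse embryonic stem cells (ESCs), D3 and B8, as they differentiated. Every row of the miRNA table that carries one of these 4 names was taken, whichever hairpin arm or gene copy it stands for, which gave 6 of 1033 rows. They are mmu-miR-375-3p, mmu-miR-192-5p, mmu-miR-194-5p, mmu-miR-194-2-3p, mmu-miR-194-1-3p and mmu-miR-122-5p, where mmu stands for mouse and is left out below. Of these, 5 passed the filter on low values, as did 521 of all rows, and miR-194-1-3p did not.

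The tested libraries are embryoid body outgrowths of D3 at day 21 (n = 3), embryoid bodies of D3 at day 7 (n = 2, replicates 2 and 3), embryoid bodies of B8 at day 7 (n = 3), and undifferentiated ESCs of D3 (n = 3) and of B8 (n = 3) at day 0. ESCs were grown with LIF, the cytokine that keeps them undifferentiated, and without feeder cells. Embryoid bodies, aggregates of differentiating cells, were started in hanging drops, and both they and their outgrowths were kept without LIF in medium with retinoic acid, insulin, transferrin, selenium and the N2 supplement. The labels name no genetic change in either line. Day 21 of B8, with 3 labelled samples, was not analysed here. An embryoid body holds many cell types at once, and in such bulk RNA fewer cells of a type cannot be told apart from less RNA per cell. Whether replicates are separate cultures is not stated in the labels, and the p-values reflect only how these samples vary, which may be technical variation.

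A miRNA is cut from a hairpin precursor and guides silencing of mRNAs that pair with its seed, the bases after its first. miR-375 is enriched in the endocrine cells of the pancreatic islets and tempers insulin secretion. miR-192 and miR-194 are made from shared primary transcripts and are abundant in intestine, liver and kidney, where hepatocyte nuclear factors activate them. miR-122 is the dominant miRNA of hepatocytes and acts in lipid and cholesterol metabolism.

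Both loci of miR-194 pair it with a member of the miR-192 family. On mouse build GRCm38, Mir194-2 lies at chr19:6264643-6264728 and Mir192 at chr19:6264844-6264932, both on the plus strand, 115 bases apart, between the coding genes Atg2a and Ehd1 and inside no annotated gene. Mir194-1 lies at chr1:185313319-185313385 and Mir215 at chr1:185313581-185313692, both on the plus strand and 195 bases apart. Both sit opposite an intron of Iars2, Mir194-1 in an intron and Mir215 in an exon of the antisense RNA 2010103J01Rik. Mir375 lies at chr1:74900658-74900721 on the minus strand, between Cryba2 and Cfap65.

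RefSeq mature sequences on GRCm38.p6 were matched to 4 of the 6 members and to the relative miR-215-5p. They are shown because they decide which rows can be told apart, with the seed (bases 2 to 8) in capitals.
miR-192-5p: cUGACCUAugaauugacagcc
miR-215-5p: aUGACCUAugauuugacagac
miR-194-5p: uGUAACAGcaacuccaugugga
miR-194-2-3p: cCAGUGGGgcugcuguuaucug
miR-194-1-3p: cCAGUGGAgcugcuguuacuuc
miR-192-5p and miR-215-5p share their seed and differ at 3 of 21 positions. Among the 873 rows that have such a sequence, no other row carries that seed. The 5p product of both miR-194 genes is a single sequence, so its row sums the copies. Their 3p products differ at 4 of 22 positions, seed included, and have separate rows.

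The Mir194-2 and Mir194-1 hairpins below are shown for the same reason, with the mature products that RefSeq annotates in capitals. Their capitals start with the same 5p product and end with the 3p product that differs. The Mir375 hairpin is added, as no RefSeq mature sequence was matched to the member miR-375-3p. Its capitals mark the 5p product, which is not a member.
Mir194-2: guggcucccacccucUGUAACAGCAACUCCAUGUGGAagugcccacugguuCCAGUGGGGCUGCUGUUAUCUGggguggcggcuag
Mir194-1: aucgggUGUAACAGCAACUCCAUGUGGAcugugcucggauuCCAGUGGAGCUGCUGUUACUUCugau
Mir375: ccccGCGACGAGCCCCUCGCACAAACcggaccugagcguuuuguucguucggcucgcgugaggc

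The deposited values are reads of each mature miRNA after division by 1 factor per library. The libraries held 56377 to 1060306 miRNA reads, fewest in D3 ESCs and most in D3 embryoid bodies, and the deposited column totals still differed 17.7-fold. The median log2 change of all 521 tested miRNAs was far from 0 in D3, at 2.25 at day 7 and 1.69 at day 21 relative to day 0, and was -0.21 in B8 at day 7 relative to day 0. Both D3 comparisons use the same D3 ESC libraries. Each change is given on the deposited scale and on a relative scale, whose median-of-ratios factors come from the 319 miRNAs seen in all 14 libraries. These factors bring the same medians to 0.27, 0.41 and -0.04. Where scaling to equal column totals turned the direction of a member's change or ended its call, that is named. A change is called at an adjusted p under 0.05 in limma, over all 521 miRNAs.

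miR-375-3p rose with differentiation in both lines and in D3 had the largest called change among the members on both of the main scales. D3 libraries held deposited values of 13.5, 10.8 and 9.997 at day 0, of 103.4 and 126.7 at day 7, and of 360.3, 400.6 and 343.2 at day 21. No library of 1 day reached into the range of another. At day 21 the D3 mean was 368.0 ± 29.5 (SD, n = 3), against 11.4 ± 1.81 at day 0 (SD, n = 3), which is 32.3-fold higher. The log2 change was 4.96 ± 0.27 (SE), limma adjusted p = 1.53e-14, or 3.43 ± 0.24 by relative values, adjusted p = 9.35e-10. Between day 21 and day 7 the log2 change was 1.68 ± 0.30, adjusted p = 9.91e-05, and 2.40 ± 0.27 on the relative scale, adjusted p = 4.44e-06.

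The early step of miR-375-3p in D3 depended on the scale. From day 0 to day 7 its log2 change was 3.28 ± 0.30 on the deposited scale, limma adjusted p = 4.30e-10, and 1.02 ± 0.27 by relative values, adjusted p = 0.0031, but -0.37 ± 0.30 with equal column totals, adjusted p = 0.282. As a share of all miRNA reads, it made up 0.0194% ± 0.0034 at day 0, 0.0150% ± 0.0036 at day 7 and 0.168% ± 0.041 at day 21 (SD, n = 3, 2 and 3). Ranked among all rows by mean share, it stood at place 183 at day 0, 160 at day 7 and 71 at day 21.

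In B8, miR-375-3p held 81.5, 51.5 and 89.2 in day 7 embryoid bodies, against 17.8, 15.8 and 21.6 in ESCs. The groups did not overlap, and the day 7 mean was 4.02-fold that of day 0. The log2 change was 1.95 ± 0.27 (SE), limma adjusted p = 1.17e-06. It was 2.18 ± 0.24 on the relative scale, adjusted p = 7.84e-07, and 1.66 ± 0.26 when column totals were made equal, adjusted p = 6.01e-05. Its share of miRNA reads was 0.0420% ± 0.0053 at day 7, against 0.0135% ± 0.0040 at day 0 (SD, n = 3 each). Leaving out any 1 library kept this call, with log2 changes between 1.80 and 2.19.

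**Figure D1:**
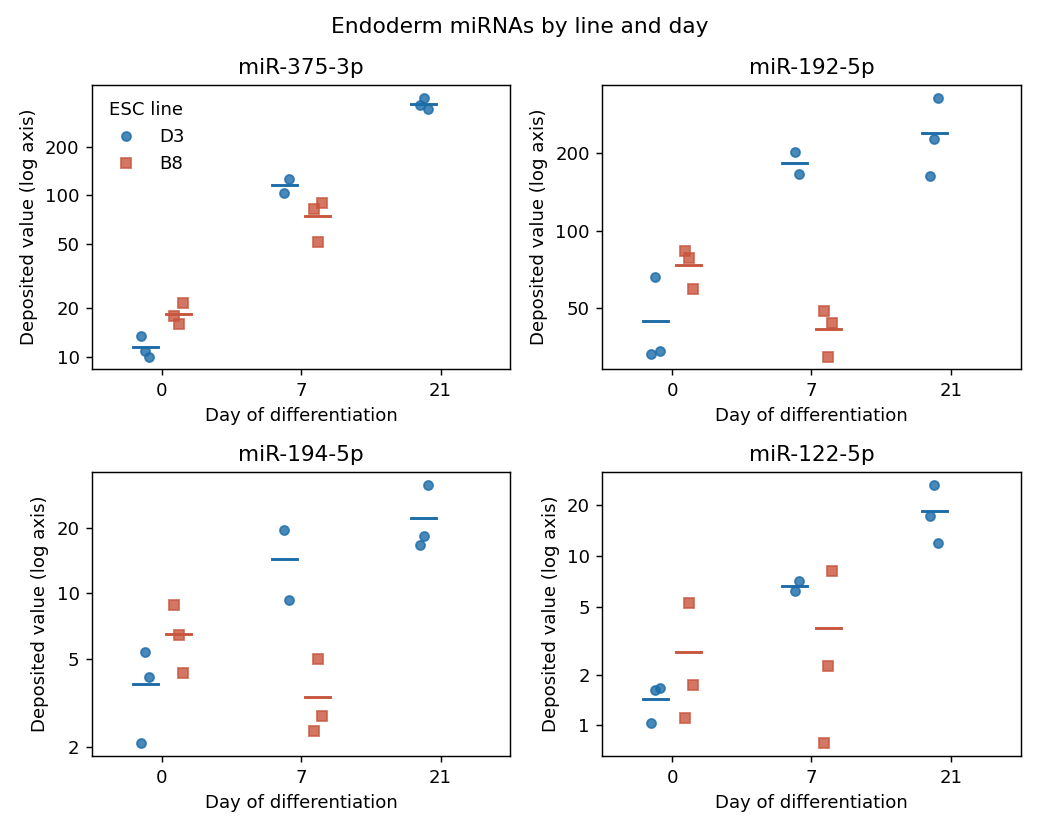
Deposited value (log axis) of the 4 main members by day of differentiation, 1 point for each library, with bars at the group means; circles are D3 and squares B8. miR-375-3p climbs with day in both lines, and in D3 reaches 343.2 to 400.6 at day 21, while miR-192-5p and miR-194-5p are high in D3 at days 7 and 21 and low in B8 at day 7.

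miR-192-5p moved in opposite directions in the lines on the deposited scale. D3 libraries held 33.1, 66.3 and 34.2 at day 0, 201.3 and 166.8 at day 7, and 163.1, 226.5 and 328.0 at day 21. Both later days lay above day 0 in every library and overlapped each other. B8 libraries held 48.6, 32.4 and 43.9 at day 7, against 83.5, 78.5 and 59.6 at day 0, without overlap.

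By day 21 miR-192-5p had risen in D3 on all 3 scales. Its mean of 239.2 ± 83.2 at day 21, against 44.5 ± 18.9 at day 0 (SD, n = 3 each), was 5.37-fold higher. The log2 change was 2.43 ± 0.30 (SE), limma adjusted p = 9.10e-08, 0.87 ± 0.23 on the relative scale, adjusted p = 0.00256, and 0.52 ± 0.21 with equal column totals, adjusted p = 0.0429. At day 7 it was 2.11 ± 0.33 above day 0 as deposited, adjusted p = 4.31e-06, below the median of all miRNAs. There the relative scale gave -0.18 ± 0.25, adjusted p = 0.576, and equal column totals -1.59 ± 0.24, adjusted p = 2.03e-05, a call in the other direction. Between day 21 and day 7 the change was 0.33 ± 0.33 as deposited, adjusted p = 0.480, and 1.05 ± 0.25 on the relative scale, adjusted p = 0.0048.

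In B8 at day 7, miR-192-5p averaged 41.7 ± 8.31, against 73.9 ± 12.6 at day 0 (SD, n = 3 each). It fell by 0.82 ± 0.30 on the log2 scale, limma adjusted p = 0.0238, by 0.60 ± 0.23 by relative values, adjusted p = 0.0344, and by 1.14 ± 0.21 with equal column totals, adjusted p = 0.0003. On the deposited scale the call was lost without B8 day 0 replicate 1 (adjusted p = 0.0857), without B8 day 0 replicate 2 (0.0769) or without B8 day 7 replicate 2 (0.1).

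miR-194-5p, the product that both miR-194 genes share, followed miR-192-5p at a lower count. D3 libraries held 2.07, 5.39 and 4.17 at day 0, 19.6 and 9.30 at day 7, and 16.6, 18.3 and 31.4 at day 21. Again both later days lay above day 0 and overlapped each other. B8 libraries held 2.35, 5.03 and 2.74 at day 7, against 8.90, 6.44 and 4.32 at day 0, with overlap. These values rest on 19, 38 and 191 reads in all at D3 day 0, 7 and 21, and on 14 at B8 day 7, against 32 at B8 day 0.

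In D3, miR-194-5p changed by 2.40 ± 0.45 (log2, SE) from day 0 to day 21, limma adjusted p = 3.54e-05, and by 1.77 ± 0.50 from day 0 to day 7, adjusted p = 0.00264. The day 7 call was lost without D3 day 7 replicate 2 (log2 1.25, adjusted p = 0.0797). On the relative scale neither was called, at 0.94 ± 0.44 for day 21, adjusted p = 0.0748, and -0.37 ± 0.50 for day 7, adjusted p = 0.561. Equal column totals turned the day 7 change to -1.69 ± 0.51, adjusted p = 0.0086, and ended the day 21 call, at 0.62 ± 0.46, adjusted p = 0.257. In B8 it was -0.88 ± 0.45 at day 7, adjusted p = 0.102, and -0.67 ± 0.44 on the relative scale, adjusted p = 0.218. That change was called with equal column totals, at -1.19 (adjusted p = 0.0379), and without B8 day 7 replicate 2, at -1.17 (adjusted p = 0.0493).

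Ratios of reads within a library need no scaling, and they set miR-194-5p and miR-375-3p apart. Per 100 reads of miR-192-5p, miR-194-5p gave 8.86 ± 3.04 in D3 at day 0, 7.65 ± 2.93 at day 7 and 9.28 ± 1.09 at day 21 (SD, n = 3, 2 and 3). In B8 it gave 8.87 ± 5.80 at day 7 and 8.71 ± 1.76 at day 0 (SD, n = 3 each). The ranges of all 5 groups overlapped, so no difference in this ratio was larger than the spread between libraries.

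The ratio of miR-375-3p to miR-192-5p differed between the days in both lines. It was 0.287 ± 0.122 in D3 at day 0, 0.637 ± 0.174 at day 7 and 1.67 ± 0.587 at day 21 (SD, n = 3, 2 and 3), and the 3 ranges did not overlap. In B8 it was 1.77 ± 0.235 at day 7, against 0.259 ± 0.0896 at day 0 (SD, n = 3 each), also without overlap. At day 7 the D3 libraries, at 0.514 and 0.760, lay below the B8 libraries, at 1.59 to 2.03, which in turn fell within the D3 day 21 range of 1.05 to 2.21. Such a ratio is compared only between libraries, since cloning and amplification can favour 1 sequence over another. It shows unequal change of the 2 miRNAs and not which of them moved, and no test was made on it.

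**Figure D2:**
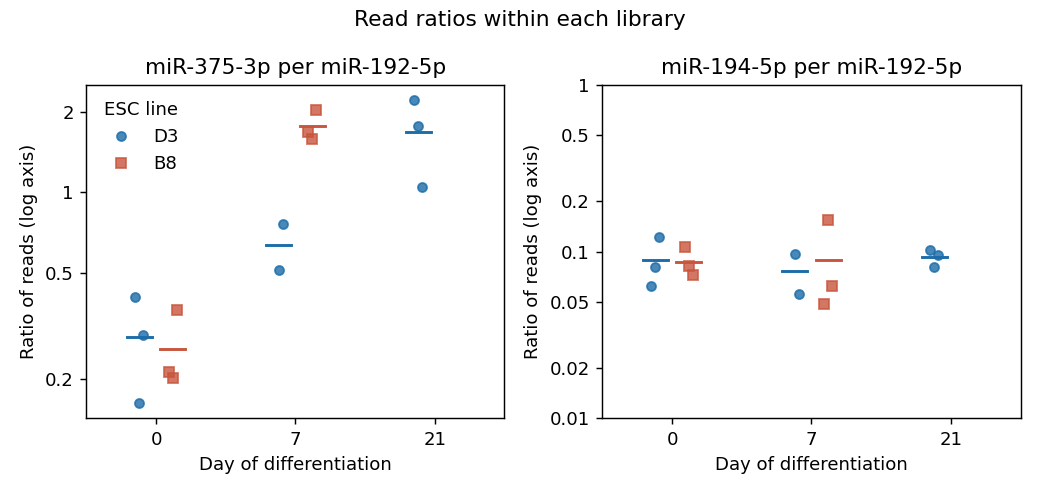
Reads of miR-375-3p (left) and of miR-194-5p (right) per read of miR-192-5p in each library (log axis), by day, with bars at the group means; circles are D3 and squares B8. The left ratio is higher on each later day in D3 and is already 1.59 to 2.03 in B8 at day 7, while the right ratio, drawn as a fraction, has group means between 7.65% and 9.28%.

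The 3p products of miR-194 were near the limit of detection. miR-194-2-3p had 0, 1 and 2 reads in the D3 libraries at day 0, 4 and 3 at day 7, and 6, 3 and 3 at day 21. B8 libraries had 3, 9 and 0 reads at day 7, against 0 in all 3 at day 0. Its B8 log2 change of 2.03 ± 0.73 passed the test, limma adjusted p = 0.0221, with both group means under the value of 3 reads, so no fold is given. That call was lost without B8 day 7 replicate 1 (adjusted p = 0.0803), B8 day 7 replicate 2 (0.159) or B8 day 0 replicate 2 (0.0503), and with equal column totals (0.0652). In B8 at day 7 it had 12 reads beside 14 of miR-194-5p, and in D3 at day 21 it had 12 reads beside 191. miR-194-1-3p was seen only in D3 at day 21, with 1, 0 and 2 reads.

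miR-215, the other member of the miR-192 family and neighbour of Mir194-1, was seen almost only in D3 outgrowths. miR-215-5p held 2.99, 2.95 and 40.96 at day 21, which is 9, 10 and 103 reads, and was 0 in all D3 libraries at days 0 and 7. It was also 0 in B8 at day 7, against 0, 1.17 and 0 in B8 at day 0. Replicate 3 at day 21 stood far above the others. Against the value of 3 reads, averaged over a group, the day 21 mean was at least 8.27-fold higher than day 0 and at least 6.95-fold higher than day 7, and without replicate 3 these bounds were 1.57-fold and 1.32-fold. The log2 change from day 0 was 4.04 ± 0.77 (SE), limma adjusted p = 5.15e-05, or 3.59 by relative values, adjusted p = 0.0006. Without replicate 3 it was 2.85, adjusted p = 0.0012. Since miR-215-5p passed the filter largely through D3 at day 21, these p-values support nothing, and the values stand as a description. miR-215-3p had 6 reads in all, each of them in D3 at day 21. The same outgrowths hold the 3 reads of miR-194-1-3p, from the locus that Mir215 shares. How reads that fit both miR-192-5p and miR-215-5p were counted is not given in the sources used here.

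miR-122-5p, whose gene lies at chr18:65248861-65248926 on the plus strand, in an exon of the long noncoding RNA AC157910.3, was scarce in ESCs and rose in D3 outgrowths. D3 libraries held 1.04, 1.62 and 1.67 at day 0, 6.27 and 7.16 at day 7, and 17.3, 26.5 and 11.9 at day 21. The 3 days did not overlap, on 7, 18 and 172 reads in all. From day 0 to day 21 its log2 change was 3.26 ± 0.58 (SE), limma adjusted p = 2.24e-05, 1.91 ± 0.65 on the relative scale, adjusted p = 0.0167, and 1.64 ± 0.68 with equal column totals, adjusted p = 0.0444. From day 0 to day 7 it was 1.92 ± 0.65 as deposited, adjusted p = 0.01, but -0.05 ± 0.73 on the relative scale, adjusted p = 0.964, and -1.28 ± 0.76 with equal column totals. The deposited day 7 call was lost without D3 day 7 replicate 3 (adjusted p = 0.0583).

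In B8, miR-122-5p held 0.784, 2.24 and 8.23 at day 7, against 1.11, 5.27 and 1.73 at day 0, and the groups overlapped across most of their range. The log2 change was 0.19 ± 0.58, limma adjusted p = 0.791. It was -0.56 without B8 day 7 replicate 3 and -0.20 without B8 day 0 replicate 1. The B8 values rest on 11 reads at day 7, against 13 at day 0. Per 100 reads of miR-192-5p, miR-122-5p gave 3.48 ± 1.26, 3.70 ± 0.83 and 8.65 ± 4.38 in D3 at days 0, 7 and 21 (SD, n = 3, 2 and 3), with overlapping ranges.

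The count of members called is read against the share of all miRNAs called. At day 7 relative to day 0 in D3, 4 of the 5 tested members rose and 0 fell, where 70.4% of all tested miRNAs rose and 6.91% fell. With relative values 1 rose (miR-375-3p) and 0 fell, beside 36.1% and 27.1% of all. Equal column totals gave 0 rises and 2 falls (miR-192-5p and miR-194-5p), with a median log2 change of -1.28 for the members, against -0.84 for all. At day 21 relative to day 0, 4 members rose and 0 fell, beside 65.3% and 10.2% of all. With relative values 3 rose and 0 fell, beside 38.2% and 25.5%. The members' median log2 change at day 21 was 2.43, against 1.69 for all tested miRNAs, and 0.94, against 0.41, on the relative scale. At day 7 it was 1.92, against 2.25, and -0.05, against 0.27, on the relative scale. Between day 21 and day 7, 1 member rose (miR-375-3p) and 0 fell, beside 8.06% and 31.5% of all. With relative values 2 rose (miR-375-3p and miR-192-5p) and 0 fell, beside 16.5% and 10.6%. In that comparison miR-194-5p differed by 0.63 ± 0.50 (log2, SE; limma adjusted p = 0.347) and miR-122-5p by 1.34 ± 0.65 (adjusted p = 0.110) as deposited, and equal column totals called both, at 2.31 and 2.92. In B8 from day 0 to day 7, 2 members rose (miR-375-3p and miR-194-2-3p) and 1 fell (miR-192-5p) on either scale. Of all tested miRNAs, 21.9% rose and 28.0% fell as deposited, and 26.9% and 25.9% on the relative scale. The rise of miR-194-2-3p rests on 12 reads at day 7, against 0 at day 0. Equal column totals gave 1 rise (miR-375-3p) and 2 falls (miR-192-5p and miR-194-5p).

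In ESCs, members were called between D3 and B8 on the deposited scale and on neither of the other scales. By deposited values, 2 of 5 members were lower in D3 ESCs, miR-375-3p by 0.67 ± 0.27 (log2, SE; limma adjusted p = 0.0425) and miR-192-5p by 0.79 ± 0.30 (adjusted p = 0.0329), and 0 were higher, beside 46.1% lower and 0.960% higher of all tested miRNAs and a median shift of -0.90. Neither was called on the relative scale, where 15.9% of all were lower and 7.68% higher, and both differences turned positive, at 0.36 ± 0.24 (adjusted p = 0.323) and 0.26 ± 0.23 (adjusted p = 0.445). The deposited call of miR-375-3p was lost without D3 day 0 replicate 2 or 3, or without B8 day 0 replicate 1 or 3 (adjusted p between 0.0829 and 0.150). That of miR-192-5p was lost without D3 day 0 replicate 1 or 3, or without B8 day 0 replicate 1 or 2 (adjusted p between 0.0994 and 0.145).

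Embryoid bodies at day 7 differed more, and miR-375-3p and miR-192-5p took opposite sides on the relative scale. As deposited, 3 of 5 members were higher in D3 than in B8 and 0 lower, beside 66.0% and 9.21% of all. miR-192-5p was higher in D3 by 2.14 ± 0.33 (log2, SE; limma adjusted p = 5.58e-06), miR-194-5p by 1.92 ± 0.50 (adjusted p = 0.00141) and miR-375-3p by 0.66 ± 0.30 (adjusted p = 0.0477). On the relative scale 1 was higher and 1 lower, beside 24.8% and 16.7% of all. miR-192-5p then differed by 0.68 ± 0.25 (adjusted p = 0.0396) and miR-375-3p by -0.80 ± 0.27 (adjusted p = 0.0254), with equal column totals by -0.01 ± 0.24 and -1.48 ± 0.30. miR-194-5p differed by 0.55 ± 0.50 on the relative scale (adjusted p = 0.403) and by -0.08 ± 0.51 with equal column totals (adjusted p = 0.943). The deposited call of miR-375-3p was lost without D3 day 7 replicate 2, without replicate 3 or without B8 day 7 replicate 2 (adjusted p between 0.0734 and 0.248). That of miR-194-5p was lost without D3 day 7 replicate 2 (adjusted p = 0.0539), and miR-122-5p was called without B8 day 7 replicate 3 (log2 1.95, adjusted p = 0.00649).

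An interaction term compared the day 7 change of D3 with that of B8. On the deposited scale 3 members changed more in D3 (71.8% of all tested miRNAs did), and 0 less (2.50% did). The differences were 2.93 ± 0.45 for miR-192-5p (log2, SE; limma adjusted p = 3.40e-06), 2.65 ± 0.67 for miR-194-5p (adjusted p = 0.00113) and 1.33 ± 0.40 for miR-375-3p (adjusted p = 0.00483), where the median of all was 2.64. On the relative scale 1 member was called, miR-375-3p, which changed less in D3, by -1.16 ± 0.36 (adjusted p = 0.0178), as 12.5% of all did, while 20.7% changed more. The relative values of miR-192-5p and miR-194-5p were 0.42 ± 0.34 (adjusted p = 0.378) and 0.31 ± 0.66 (adjusted p = 0.769), and with equal column totals both were below 0, at -0.45 and -0.50. For miR-122-5p the deposited interaction was 1.73 ± 0.87 (adjusted p = 0.0770), and it was called without B8 day 0 replicate 1 (2.12, adjusted p = 0.0390) or B8 day 7 replicate 3 (2.48, adjusted p = 0.00721).

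**Figure D3:**
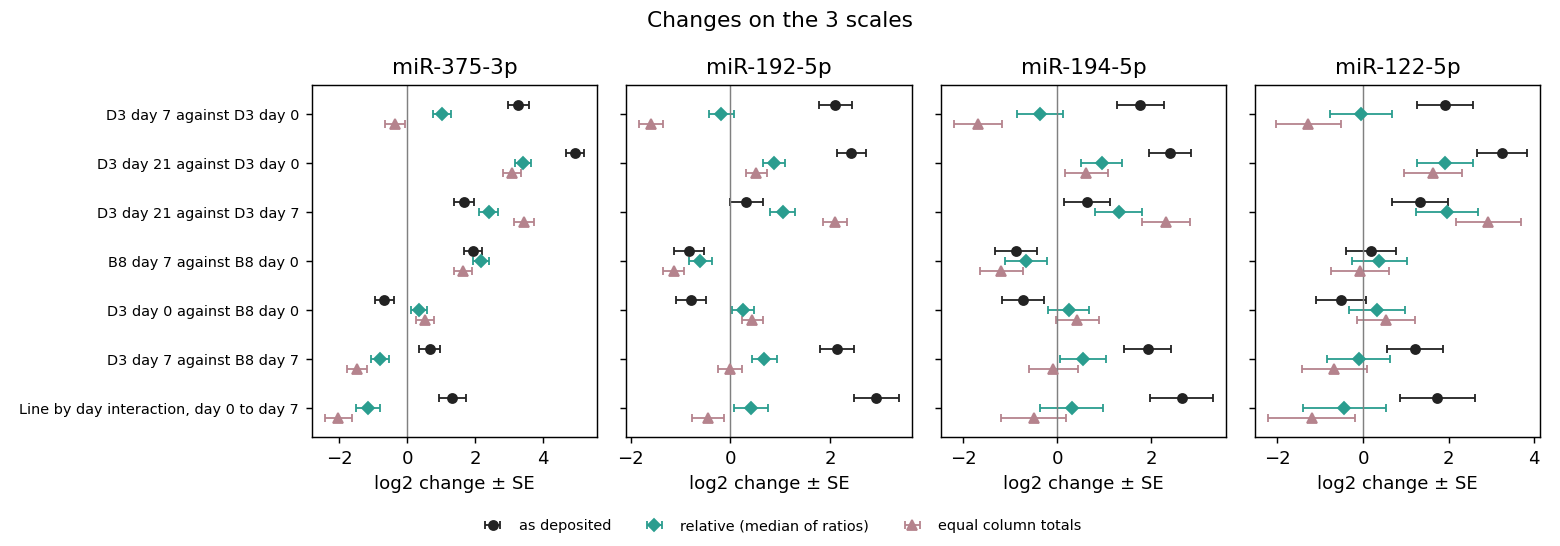
log2 change ± SE from limma for the 4 main members in the 6 comparisons and the interaction, on the deposited scale (circles), the relative scale (diamonds) and with equal column totals (triangles). The scales differ widely in the D3 comparisons and the interaction, and lie on one side of 0 for miR-375-3p in D3 day 21 against day 0 (4.96, 3.43 and 3.08) and in B8 day 7 against day 0 (1.95, 2.18 and 1.66).

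D3 day 21 had the highest mean of miR-375-3p on both scales, while the order below it depended on the scale. As deposited, the means ran, high to low, from D3 day 21 through D3 day 7, B8 day 7 and B8 day 0 to D3 day 0, and no neighbours overlapped. On the relative scale B8 day 7 came second, at 86.9 ± 20.7 (SD, n = 3), above D3 day 7 at 49.0 ± 7.17 (SD, n = 2), and the day 0 groups, last in the order, overlapped. For miR-192-5p the relative order had D3 day 21 on top and B8 day 7 at the bottom, each clear of its neighbour, with the other 3 groups overlapping between them. For miR-122-5p on the relative scale every neighbouring pair overlapped. Summed over all 6 rows, the members made up 0.103% ± 0.022 of miRNA reads in D3 at day 0, 0.0417% ± 0.0022 at day 7 and 0.290% ± 0.031 at day 21 (SD, n = 3, 2 and 3). In B8 they made up 0.0715% ± 0.0039 at day 7 and 0.0725% ± 0.0006 at day 0 (SD, n = 3 each).

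Other miRNAs known from pancreas, gut and liver were counted in the same way. The list of 13 rows holds miR-216a, miR-216b and miR-217, neighbours that are enriched in pancreas, together with miR-7a, miR-7b and miR-148a, and 11 rows passed the filter. From day 0 to day 7 in D3, 9 rose and 1 fell as deposited, beside 70.4% and 6.91% of all tested miRNAs. By relative values 6 rose and 1 fell, beside 36.1% and 27.1%, whereas equal column totals gave 6 and 5. In each of these counts 5 of the rises are pancreas-enriched rows, which passed the filter largely through D3 at days 7 and 21, so the counts support nothing about the list. In D3 from day 0 to day 21, 8 rose and 1 fell, or 8 and 2 by relative values, beside 65.3% and 10.2%, or 38.2% and 25.5%, of all. Here too 5 of the rises are the pancreas-enriched rows on either scale, so these counts support nothing about the list either. In B8 from day 0 to day 7, 2 rose and 3 fell on both scales, and 2 and 4 with equal column totals. The rises are miR-216b-5p, with 8 reads in all at day 7 against 1 at day 0, and miR-7a-2-3p, with 16 against 3. Both rows passed the filter largely through differentiated groups, so the count of rises supports nothing about the list. Of all tested miRNAs, 21.9% rose and 28.0% fell in B8 by day 7 as deposited, and 26.9% and 25.9% by relative values.

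All of the pancreas-enriched rows were at 0 in D3 ESCs and appeared in D3 embryoid bodies. Their summed deposited values were 0 in all D3 libraries at day 0, 100.2 and 128.4 at day 7, and 27.2 to 31.0 at day 21. In B8 they were 1.37 to 4.70 at day 7, against 0 to 0.585 at day 0. miR-216b-5p held 50.1 and 41.5 in D3 at day 7, and 8.97, 13.0 and 11.1 at day 21. In B8 it held 3.92, 1.12 and 1.37 at day 7, against 0.557, 0 and 0 at day 0. The D3 mean at day 7 was at least 24.2-fold higher than at day 0, against the value of 3 reads averaged over the group. This bound is on the deposited scale, where the median of all tested miRNAs rose by 2.25 (log2) between these groups. No bound was made on the relative scale, where the day 7 mean was 19.5 ± 2.53 (SD, n = 2), or as a share of miRNA reads, where it was 58.9 ppm.

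Since the filter kept these rows largely through D3 at days 7 and 21, no count of calls over them is read as a result, and the values stand as a description. As a share of miRNA reads, their sum was 109.8 to 149.9 ppm in D3 at day 21, against 138.8 and 154.7 ppm at day 7, and these ranges overlap, whereas the deposited sums do not. Between the same days miR-375-3p rose on all 3 scales.

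**Figure D4:**
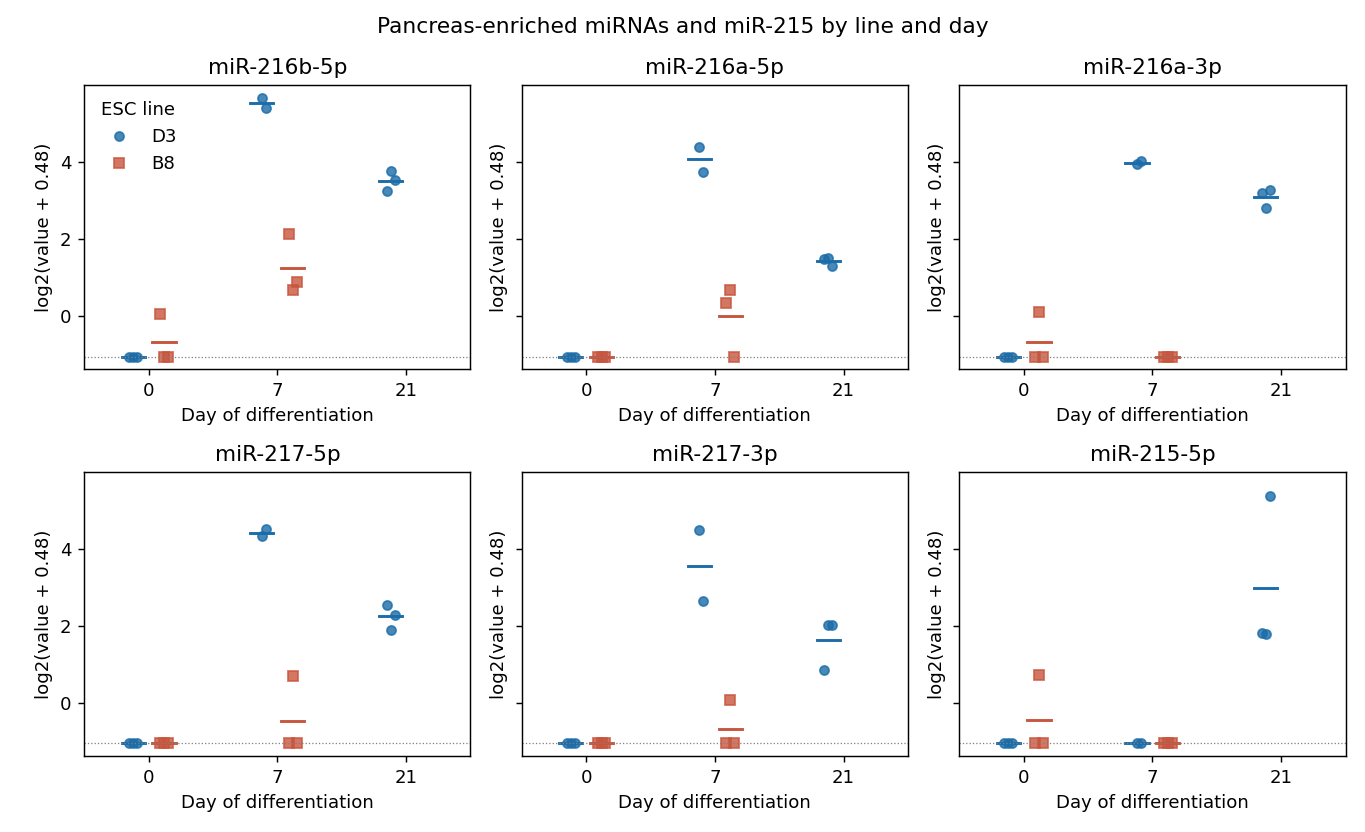
log2(deposited value + 0.48) of the 5 tested pancreas-enriched miRNAs and of miR-215-5p by day, 1 point for each library, with bars at the group means of these log2 values; circles are D3, squares B8, and the dotted line marks a value of 0. The pancreas-enriched miRNAs lie on the dotted line in D3 at day 0 and have their highest deposited values in D3 at day 7, whereas miR-215-5p leaves it in D3 only at day 21, where 1 library stands apart.

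Of the 3 most abundant rows of the list, both arms of miR-148a rose in D3 by day 21 as deposited and fell in B8 by day 7, and miR-7a-5p fell in both lines. miR-148a-3p, abundant in liver and pancreas, averaged 290.9 in D3 at day 0, 1182.5 at day 7 and 3129.7 at day 21, and 442.6 in B8 at day 7, against 737.0 at day 0. Its change to day 21 in D3 was 3.36 ± 0.28 (log2, SE; limma adjusted p = 7.48e-11), or 1.79 ± 0.22 by relative values (adjusted p = 1.51e-06). The D3 libraries at day 21 held 2182.5, 2393.6 and 4813.0. From day 0 to day 7 in D3 its rise was seen only as deposited. There the relative change was -0.26 ± 0.25 (adjusted p = 0.376), and that with equal column totals -1.68 ± 0.28 (adjusted p = 6.18e-05). miR-148a-5p, from the other arm of the same hairpin, averaged 14.2, 58.4 and 78.0 in D3 at days 0, 7 and 21, and 17.9 in B8 at day 7, against 66.5 at day 0. Its log2 change in D3 from day 0 to day 7 was -0.23 ± 0.24 by relative values and -1.62 ± 0.26 with equal column totals. miR-7a-5p, known from islets and neurons, averaged 235.4, 106.5 and 42.3 in D3 at days 0, 7 and 21, and 82.3 in B8 at day 7, against 433.2 at day 0. It fell in D3 by 2.42 ± 0.29 on the log2 scale by day 21 (adjusted p = 6.53e-08), and by 3.98 ± 0.23 on the relative scale (adjusted p = 5.88e-11).

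Markers of other cell types moved in the same libraries, and their part in the members' values was not tested. The ESC label was checked on the miR-290 and miR-302 clusters, known from pluripotent cells, whose summed values on the relative scale were 24665 to 31541 in D3 at day 0, 2108.5 to 2452.4 at day 7 and 2153.5 to 2263.6 at day 21. In B8 that sum was 14033 to 19696 at day 7, against 33287 to 42710 at day 0. Of the 20 rows, 1 was at 0 in the ESCs of each line and in D3 at day 7. In D3 at day 21, 0 were at 0, and in B8 at day 7, 3 were, so being above 0 does not set the ESCs apart. As deposited, 0 of the 19 tested rows of these clusters rose and 17 fell in B8 by day 7, beside 21.9% and 28.0% of all. In D3 by day 21, 4 rose and 12 fell, beside 65.3% and 10.2% of all.

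Neural miRNAs were highest at day 7 in D3. Their summed relative values were 124.0 to 133.6 in D3 at day 0, 4294.6 to 5094.8 at day 7 and 1032.6 to 1291.1 at day 21, and in B8 2214.6 to 2973.3 at day 7, against 133.3 to 152.9 at day 0. The brain-enriched miR-9-5p supplied most of it, with 9879.7 and 8184.6 in D3 at day 7 as deposited. Of the 9 tested neural rows, 9 rose and 0 fell in D3 by day 7 as deposited, beside 70.4% and 6.91% of all tested miRNAs, and 7 rose by relative values, beside 36.1%. In B8 by day 7, 5 rose on both scales, beside 21.9% of all as deposited and 26.9% by relative values. Equal column totals gave 5 rises and 1 fall in each line. Rows such as miR-219a-2-3p, miR-9-3p and miR-219a-5p passed the filter largely through the differentiated groups. In D3 they had 5, 1 and 0 reads in all at day 0, against 3637, 149 and 37 at day 7. The counts of neural rises therefore support nothing about the list, and the values stand as a description. Epithelial miRNAs, relevant since gut and liver linings are epithelia, summed to 506.9 to 542.0 in D3 at day 0, 281.7 to 347.1 at day 7 and 735.0 to 857.3 at day 21 on the relative scale. In B8 that sum was 737.5 to 902.4 at day 7, against 1059.5 to 1104.9 at day 0. The largest part of it was miR-205-5p, a marker of stratified epithelia, with a relative change of 1.11 ± 0.17 in D3 by day 21 (log2, SE; limma adjusted p = 2.16e-05). Of the 10 tested epithelial rows, 7 rose and 0 fell in D3 by day 21 as deposited, beside 65.3% and 10.2% of all. By relative values 1 rose and 3 fell, beside 38.2% and 25.5%, whereas equal column totals gave 1 and 5. In B8 by day 7, 0 rose and 4 fell as deposited, beside 21.9% and 28.0%.

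Muscle, mesenchymal, blood and endothelial miRNAs were read in the same way. Muscle miRNAs summed to 0 to 2.07 on the relative scale in D3 at day 0, 6.65 to 8.55 at day 7 and 183.3 to 539.0 at day 21, with 8 of 10 rows at 0 at day 0 and 0 at day 21. In B8 they summed to 3.31 to 7.94 at day 7, against 1.15 to 1.86 at day 0. Mesenchymal miRNAs summed to 237.8 to 310.4, 3582.4 to 4243.0 and 8152.1 to 12202 in D3 at days 0, 7 and 21. In B8 that sum was 1115.4 to 2700.1 at day 7, against 2309.8 to 2593.4 at day 0. All 9 tested rows rose in D3 by day 7, beside 70.4% of all as deposited and 36.1% by relative values. By day 21 all 9 rose on both scales, beside 65.3% and 38.2%. Blood miRNAs summed to 21.7 to 23.7 in D3 at day 0, 0.916 to 1.66 at day 7 and 17.5 to 22.1 at day 21, and the red cell miRNA miR-451a was at 0 in D3 at days 0 and 7 and in both B8 groups. In B8 they summed to 21.6 to 35.3 at day 7, against 329.9 to 424.1 at day 0. Endothelial miR-126 summed over both arms to 111.5 to 129.8 in D3 at day 0, 687.9 to 690.3 at day 7 and 341.4 to 582.2 at day 21, and in B8 to 51.4 to 79.8 at day 7, against 104.4 to 115.4 at day 0. Only 3 of 10 muscle rows passed the filter, largely through D3 at day 21, so their rises there support nothing. As deposited, 2 of 3 tested blood rows and 2 of 2 endothelial rows rose in D3 by day 21, beside 65.3% of all tested miRNAs. Of the blood rises, miR-223-3p passed the filter largely through those same libraries. For blood, 1 rose and 1 fell by relative values, beside 38.2% and 25.5% of all, and 1 and 2 with equal column totals. In B8 by day 7, as deposited, 1 muscle row rose, 1 mesenchymal row rose and 3 fell, 2 blood rows fell and 1 endothelial row fell. Of all tested miRNAs, 21.9% rose and 28.0% fell there. The muscle row is miR-1a-3p, with 6 reads in all at day 7, against 1 at day 0. Both group means were under the value of 3 reads, so this rise supports nothing either.

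The miRNAs most like each member were sought by Pearson's r over the 14 libraries, on the log2 relative scale, as a description. The libraries share their line, day and depth, so members of a group are not independent points, and the median r of all other tested miRNAs was 0.09 to 0.11. miR-192-5p was nearest to miR-378a-3p (r = 0.90), miR-140-3p (0.88) and miR-668-3p (0.86). miR-194-5p was nearest to miR-192-5p (0.86), its neighbour on chromosome 19, then to miR-378a-3p (0.86) and miR-154-5p (0.79). miR-375-3p was nearest to miR-351-5p (0.94), the muscle miRNA miR-1a-3p (0.92) and miR-204-5p (0.92), and had an r of 0.42 with miR-192-5p. miR-122-5p was nearest to miR-1a-3p (0.79), miR-375-3p (0.68) and the blood miRNA miR-223-3p (0.68). On the deposited scale these values were 0.71 to 0.98.

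On the relative scale, miR-351-5p averaged 35.7, 479.4 and 1546.7 in D3 at days 0, 7 and 21, and 490.9 in B8 at day 7, against 43.7 at day 0. Like miR-375-3p it was highest in D3 at day 21 and lowest in the day 0 groups, though the order of those 2 was the reverse. miR-1a-3p averaged 0, 2.69 and 80.6 in D3 at days 0, 7 and 21, and 2.10 in B8 at day 7, against 0.192 at day 0. miR-378a-3p averaged 169.4, 102.7 and 409.6 in D3, and 78.0 in B8 at day 7, against 109.7 at day 0, and so shares with miR-192-5p its lowest level in B8 at day 7. miR-223-3p was at 0 in all D3 libraries at days 0 and 7 and averaged 3.83 at day 21, on 48 reads.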

How the data were processed

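Small RNA libraries of 14 of 17 labelled samples, in 5 of 6 groups, were analysed. The authors deposited 1 table of signal: the reads of each mature miRNA after division by 1 factor per library. Its title names TMM. How the factors were made is not given in the sources used here. Bowtie, Partek, FastQC, CASAVA and genome build mm10 are named, without roles, per the submitters' processing notes. Rules for reads that match several miRNAs, such as miR-192-5p and miR-215-5p, are not given in the sources used here. In every library 100% of values up to 1000 reads lay within 0.01 of a whole number of reads, so reads were recovered.

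Rows with a mean of at least 5 ppm of the column total over the libraries were kept. log2(value + 0.48), a pseudocount of 2 ppm of the mean column total, was fitted with limma 3.58.1 in R 4.3.3 as 5 group means with a trended prior, and adjusted by Benjamini-Hochberg. Since a pseudocount is added, a fold change of a low miRNA is understated. The code was tested on simulated data. The fit on recovered reads used edgeR 4.0.16 and is an alternative, given with the others in the closing section. A floor of 3 reads covers only counting error, because PCR copies are not separate molecules. Annotation is GENCODE vM21 on GRCm38, the build also called mm10, and sequences are RefSeq's. Named miRNAs were all member rows, miR-215, up to 3 of the most abundant rows of the pancreas, gut and liver list, the 3 nearest by Pearson's r to each main member, and up to 2 of the most abundant epithelial and neural rows. The pancreas-enriched rows, miR-216 and miR-217, are named as part of their list, miR-216b-5p having been chosen for its values. The miR-451a, miR-1a-3p and miR-223-3p values stand as markers or nearest rows. The members and lists were chosen with earlier results of these data known.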

Additional observations from a re-analysis of the deposited data

Results flagged for a closer look

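The lines differed in how far 3 members changed from day 0 to day 7, by the interaction test on the deposited scale. The change in D3 minus that in B8 was 1.33 (log2) for miR-375-3p, 2.93 for miR-192-5p and 2.65 for miR-194-5p, while the median over all tested miRNAs was 2.64. On the relative scale the value for miR-375-3p was of the other sign, at -1.16 (limma adjusted p = 0.0178), and those for miR-192-5p and miR-194-5p were 0.42 (adjusted p = 0.378) and 0.31 (adjusted p = 0.769). With equal column totals they were -2.03 (adjusted p = 0.0008), -0.45 (adjusted p = 0.353) and -0.50 (adjusted p = 0.650). Library depth moved with this difference (1008438 to 1060306 miRNA reads in D3 embryoid bodies, against 56377 to 129486 in D3 ESCs), and their part in it was not tested.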

How the results depend on the processing

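miR-375-3p kept its rise in D3 at day 21 against days 0 and 7, and in B8 at day 7, on the 3 scales, and miR-192-5p and miR-122-5p kept theirs in D3 at day 21 against day 0. Most other changes depended on how libraries were scaled. Values below are log2 changes that took the other sign, and the cause was not tested. Equal column totals turned B8 day 7 against B8 day 0 to -0.0795 for miR-122-5p. D3 at day 7 minus day 0 was -0.37 for miR-375-3p, -1.59 for miR-192-5p, -1.69 for miR-194-5p, -0.75 for miR-194-2-3p and -1.28 for miR-122-5p. D3 at day 21 minus day 0 was -0.19 for miR-194-2-3p. D3 at day 21 minus day 7 was 0.55 for miR-194-2-3p. In ESCs, D3 minus B8 was 0.54 for miR-375-3p, 0.44 for miR-192-5p, 0.42 for miR-194-5p and 0.53 for miR-122-5p. At day 7, D3 minus B8 was -1.48 for miR-375-3p, -0.00632 for miR-192-5p, -0.0811 for miR-194-5p, -0.94 for miR-194-2-3p and -0.67 for miR-122-5p. The interaction then stood at -2.03 for miR-375-3p, -0.45 for miR-192-5p, -0.50 for miR-194-5p and -1.20 for miR-122-5p. Median-of-ratios factors turned D3 day 7 against D3 day 0 to -0.18 for miR-192-5p, -0.37 for miR-194-5p and -0.0505 for miR-122-5p. D3 at day 21 minus day 0 was -0.080 for miR-194-2-3p. D3 minus B8 was, in ESCs, 0.36 for miR-375-3p, 0.26 for miR-192-5p, 0.24 for miR-194-5p and 0.33 for miR-122-5p. In day 7 embryoid bodies it was -0.80 for miR-375-3p, -0.44 for miR-194-2-3p and -0.11 for miR-122-5p. The interaction then stood at -1.16 for miR-375-3p and -0.44 for miR-122-5p. edgeR with TMM factors turned D3 day 7 against D3 day 0 to -0.41 for miR-192-5p, -0.54 for miR-194-5p, -0.34 for miR-194-2-3p and -0.20 for miR-122-5p. D3 at day 21 minus day 0 was -0.35 for miR-194-2-3p. In ESCs, D3 minus B8 was 0.31 for miR-375-3p, 0.21 for miR-192-5p and 0.12 for miR-194-5p. At day 7, D3 minus B8 was -1.07 for miR-375-3p, -1.90 for miR-194-2-3p and -0.56 for miR-122-5p. The interaction then stood at -1.38 for miR-375-3p and -0.53 for miR-122-5p. Equal totals without miR-10a and miR-10b turned D3 day 7 against D3 day 0 to -0.0653 for miR-192-5p and -0.26 for miR-194-5p. D3 at day 21 minus day 0 was -0.15 for miR-194-2-3p. D3 minus B8 was, in ESCs, 0.53 for miR-375-3p, 0.44 for miR-192-5p, 0.41 for miR-194-5p and 0.48 for miR-122-5p. In day 7 embryoid bodies it was -0.80 for miR-375-3p, -0.43 for miR-194-2-3p and -0.0841 for miR-122-5p. The interaction then stood at -1.33 for miR-375-3p and -0.57 for miR-122-5p. edgeR on the deposited scale turned D3 day 7 against B8 day 7 to -0.20 for miR-194-2-3p.

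Leaving out 1 library moved miR-122-5p between -0.56 and 0.84 in B8 day 7 against day 0 and between -0.91 and 0.016 in D3 against B8 at day 0. It moved miR-194-2-3p between -0.36 and 1.40 in D3 against B8 at day 7 and between -1.44 and 0.32 in the interaction. Counts of members called ranged from 1, without B8 day 0 replicate 2, to 3 in B8 day 7 against day 0, from 0 to 1 in D3 against B8 at day 0 and from 1, without D3 day 7 replicate 2, to 4 in D3 against B8 at day 7. The count of all miRNAs called in D3 day 21 against day 7 ranged from 116, without D3 day 7 replicate 2, to 185, against 206 with all libraries.

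Members called in D3 day 7 against day 0 numbered 1 with median-of-ratios factors, with equal totals without miR-10a and miR-10b and with edgeR's TMM factors, and 2 with equal column totals, against 4. In D3 day 21 against day 7 they numbered 2 with a pseudocount of 10 ppm, with median-of-ratios factors, with equal totals without miR-10a and miR-10b, with edgeR on the deposited scale and when the groups compared were fitted alone, and 4 with equal column totals and with edgeR's TMM factors, against 1. In D3 against B8 at day 0 they numbered 1 with a pseudocount of 10 ppm, with edgeR on the deposited scale and when fitted alone, and 0 without a filter, without a trend and under the other scalings, against 2. In D3 against B8 at day 7 they numbered 1 with equal column totals and with edgeR's TMM factors, against 3, as in the interaction with median-of-ratios factors, equal column totals and equal totals without miR-10a and miR-10b. In B8 day 7 against day 0 the count was 1 without a filter, against 3.

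Of all miRNAs, a filter at 50 ppm left 251 called in D3 day 7 against day 0, 258 in D3 day 21 against day 0 and 261 in D3 against B8 at day 7, with fewer tested. Equal totals without miR-10a and miR-10b gave 136 in D3 day 21 against day 7, 116 in D3 against B8 at day 0, 205 in D3 against B8 at day 7 and 160 in the interaction. In these last 3, median-of-ratios factors gave 123, 216 and 173, equal column totals 113, 163 and 159, and edgeR's TMM factors 119, 216 and 159.

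Same-numbered replicates shared only a number: of 26 pairs, 2 had a correlation of deviations over 0.1, with a range of -0.13 to 0.14. With the replicate number as a block, 2 members were called in D3 day 21 against day 7, against 1 without the block, the added one being miR-122-5p (1.64, limma adjusted p = 0.0366). The block left the member count of every other comparison as it was.

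D3 ESCs had the fewest reads, 56377 to 129486, which limits miR-194-5p and miR-122-5p there to 19 and 7 reads in all.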
